A study of Mus musculus with 6 samples.

Results

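The circRNAs described here are the 100 exonic circRNAs longer than 300 nt and shorter than 1000 nt with the highest signal in microglia of wild-type (WT) mice. They were ranked by the mean of the 3 WT columns in the deposited table of processed log2 values, among 795 exonic circRNAs of that length. The 795 remained of 796 after leaving out Anks1b, Carm1 and Dlg1 as host genes. All of them come from the 1734 entries held of the study's sheet of detected circRNAs, of which 1342 are exonic; the rest of the sheet was not at hand, and the array as a whole carried 14236 circRNA probes, of which 13420 passed the filter on dim signal and were tested. All 100 members passed that filter. Because WT signal chose the members, their levels are given as a description and were not tested, and a rank in this order sets no probe's level against another probe's, since each probe has its own affinity and label yield.

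The arrays asked which circRNAs differ between cortical microglia of WT mice and of APP/PS1 mice, a model of cerebral amyloid deposition. Cells were taken from the cortex of male mice aged 6 months with magnetic beads against CD11b, a surface integrin of microglia and other myeloid cells. The WT group was C57BL/6J, and the APP/PS1 group carried a chimeric mouse and human APP695 with the Swedish mutation together with a mutant human PS1 (APPswe and PSEN1dE9). Each genotype had 3 samples from different donors, each hybridised to 1 array after digestion of linear RNA with RNase R, in a single Cy3 channel. The sources give neither the promoter that drives the transgenes nor whether the WT mice were littermates.

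A circRNA forms when the spliceosome joins a downstream splice donor to an upstream acceptor, which closes 1 or more exons of a host gene into a ring. Without free ends the ring resists exonucleases and can outlast the linear mRNA of the same gene. Brain tissue holds many circRNAs, and neurons are known as a rich source of them, so the host genes of a cortical preparation are of interest in themselves.

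None of 15 genes that define microglia, among them Cx3cr1, P2ry12, Tmem119 and Trem2, hosts a circRNA in the entries held, so the cell type could not be checked against its own markers here and the members are named by the rule that chose them. None of 8 endothelial markers hosts one either. Of 8 astrocyte markers 2 host a circRNA in these entries and 1, Slc1a2, is a member; of 8 oligodendrocyte markers 1 does, and it is not a member. In bulk RNA of this kind, fewer cells of a type and less RNA per cell cannot be told apart. All 6 arrays lay on 1 slide, scanned once. Row 1 of the slide held the WT samples and row 2 those of APP/PS1 mice, and an effect of the row cannot be told apart from one of genotype.

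Of the 100, the circRNAs of Immt and Atp6v1h rose in APP/PS1 microglia and those of Ablim1, Arid1b and Ccar1 fell, by a fold change of at least 1.5 with an unadjusted limma p under 0.05. These 2 higher and 3 lower calls stand beside 5.41% of all 13420 probes past the same thresholds, 3.15% higher and 2.26% lower. Among the 695 other exonic circRNAs of the same length the share was 4.32%, 2.01% higher and 2.3% lower. With p alone, 15 members were under 0.05, 5 of them higher and 10 lower, against 17.8% of all probes (8.87% higher and 8.9% lower) and 19% of the 695 others (9.21% higher and 9.78% lower). After Benjamini-Hochberg adjustment over all probes limma called 0 members and 0 probes at 0.05, and the lowest adjusted p of a member was 0.124. The methods' own test, run in place of limma, called 0 members and 4 of the 13420 probes after adjustment, with 14 members and 2072 probes under an unadjusted p of 0.05. The shares of members past the thresholds lie near the background, and nothing is concluded from the counts.

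**Figure D1:**
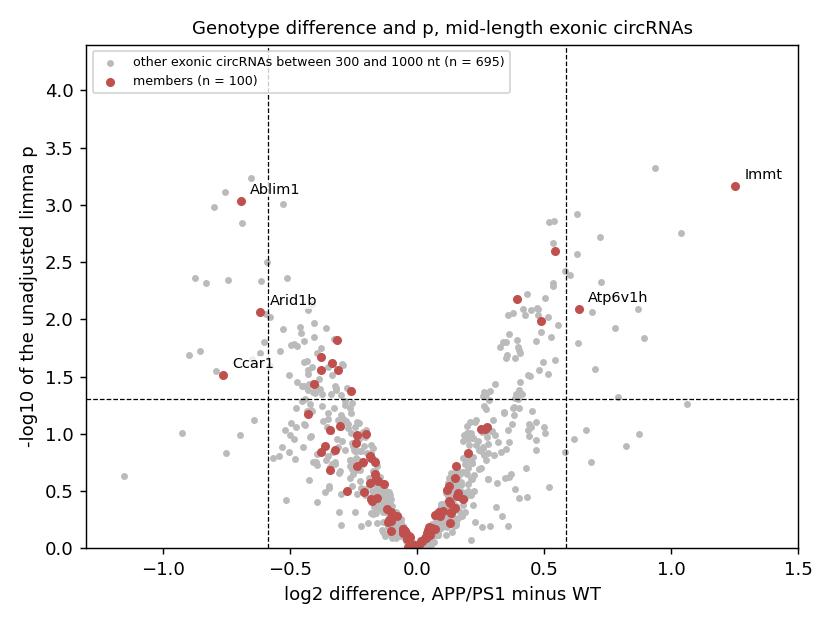
Each dot is 1 circRNA, with the log2 difference of APP/PS1 minus WT on the x axis and minus log10 of the unadjusted limma p on the y axis, members in red and the 695 other exonic circRNAs between 300 and 1000 nt in grey; dashed lines mark a fold change of 1.5 and a p of 0.05. The 5 named members lie outside the lines, with Immt farthest to the right at 1.25.

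The plot of difference against p shows the members gathered near a difference of 0. Their median log2 difference was -0.04, with quartiles of -0.18 and 0.08 and a range from -0.76 to 1.25. The median was -0.02 over the 695 others and -0.01 over all probes. Of the members, 41 had a difference above 0 and 59 one below 0. A difference within 1.2-fold in either direction was found for 76% of members, 62.3% of the others and 67.5% of all probes. As the WT values entered the choice and the APP/PS1 values did not, the balance of signs and the closeness to 0 are a description.

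Immt encodes mitofilin, which shapes the cristae of the inner mitochondrial membrane. Its circRNA, mmu_circRNA_40395, joins exons between positions 71844639 and 71857048 of chromosome 6 into a ring of 744 nt. It measured 7.76, 8.08 and 8.08 on the log2 scale in WT arrays 1 to 3 and 9.62, 9.29 and 8.77 in APP/PS1 arrays 1 to 3. Every APP/PS1 array was above every WT array, and the lowest APP/PS1 value was that of array 3. The difference was 1.25 ± 0.22 (SE, n = 3 per genotype), a 2.38-fold higher mean, with an adjusted p of 0.124 from limma. Before normalization the scanner's background-subtracted signal was 203, 247 and 225 units in WT and 736, 852 and 502 in APP/PS1, beside local backgrounds of 13 to 18 units. This member stood near the end of the ranking, at 94 of 100, and with the WT mean of the separately normalized scanner signal in place of the deposited one it would not have been chosen.

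Atp6v1h encodes a subunit of the proton pump that acidifies lysosomes and endosomes. The ring of 833 nt measured 8.42, 8.57 and 8.65 (mean 8.55) in WT and 9.23, 9.48 and 8.84 (mean 9.18) in APP/PS1. The 3 APP/PS1 arrays all lay above the WT arrays, with array 3 again the lowest of them. The difference of 0.64 ± 0.18 corresponds to a 1.56-fold higher mean, with an adjusted p of 0.150. The call was lost without APP/PS1 array 2, where the difference was 0.49, and without WT array 1, where it was 0.57. It was lost as well with the deposited table, at 0.51, with median spot signal, at 0.52, and with normexp background correction, at 0.49.

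Among the members that fell, Ablim1 encodes an actin-binding LIM protein. Its circRNA of 679 nt measured 10.09, 9.83 and 9.91 in WT arrays and 9.34, 9.08 and 9.34 in APP/PS1 arrays. The genotypes were apart, with all 3 APP/PS1 arrays below the lowest WT array. The log2 difference was -0.69 ± 0.13 (SE), a mean 1.62-fold higher in WT, with an adjusted p of 0.124. Immt and Ablim1 were the only members called under each of the 17 alternatives of normalization, background, filter, test and left-out array, with differences of 1.05 to 1.48 for Immt and -0.75 to -0.61 for Ablim1.

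Arid1b encodes a subunit of the BAF chromatin remodelling complex. The circRNA, 598 nt long, measured 9.57, 9.66 and 9.53 in WT and 9.23, 8.61 and 9.09 in APP/PS1. All APP/PS1 values were below the WT values, and array 2 was well below the other APP/PS1 arrays. The difference was -0.62 ± 0.17 (SE), with an adjusted p of 0.153. Without APP/PS1 array 2 it was -0.43 and without WT array 2 it was -0.57, and neither passed the fold threshold. Nor did it pass with 75th percentile scaling, at -0.57, with the deposited table, at -0.50, with median spot signal, at -0.48, or with normexp, at -0.46.

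Ccar1 encodes a regulator of the cell cycle and apoptosis that also acts as a coactivator of transcription. Its circRNA of 534 nt measured 9.02, 8.13 and 8.31 in WT and 7.38, 7.63 and 8.17 in APP/PS1. The genotypes overlapped, since APP/PS1 array 3 was above WT array 2, and WT array 1 stood apart at the top. The difference was -0.76 ± 0.28 (SE) with an adjusted p of 0.230, in the direction of the call on 3 of 3 APP/PS1 arrays against the WT mean of 8.49. It did not pass without WT array 1, at -0.49, without APP/PS1 array 1, at -0.59, or without APP/PS1 array 2, at -0.71. With all arrays it lost the call in the methods' own test and with the replicate number as a block, where the difference is the same and p was not under 0.05.

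The counts of called members also moved with single arrays, as did the share of all probes called. Without WT array 1 there were 1 higher and 5 lower members, the lower ones including Mllt10, Grk4 and Depdc7, which with all arrays were not called, beside 4.54% of all probes. Without APP/PS1 array 2 there were 1 higher and 1 lower, which were Immt and Ablim1, beside 4.72%. Without APP/PS1 array 3 there were 3 higher and 3 lower, with Eef2k added, beside 6.61%. Without APP/PS1 array 1 the count was again 2 and 3, with Cox18 in place of Ccar1, beside 6.43%.

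**Figure D2:**
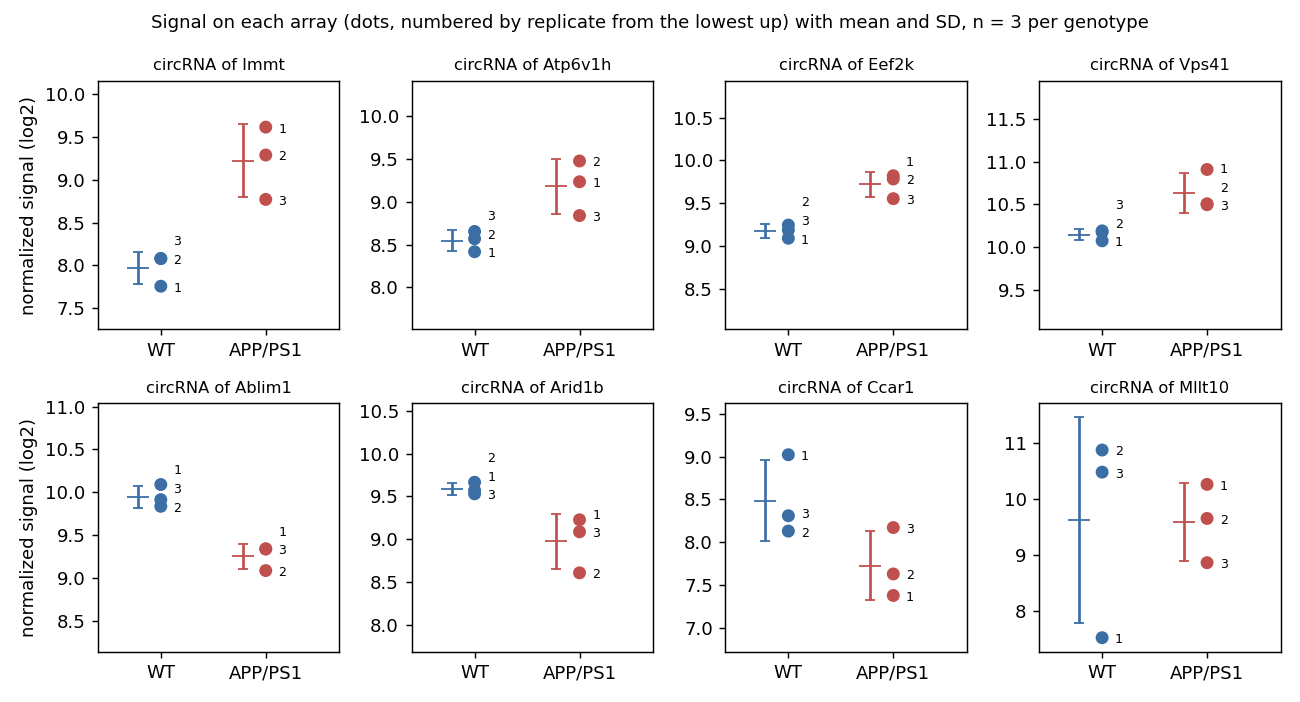
Normalized log2 signal (y axis) of 8 members on each array, with dots numbered by replicate and the mean and SD of 3 arrays per genotype to the left of the dots; each y axis has its own range. Immt, Atp6v1h, Eef2k and Vps41 have all APP/PS1 dots above the WT dots, Ablim1 and Arid1b have them below, and Ccar1 and Mllt10 overlap.

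The plot of values by array shows the 5 called members with 3 that were not called. Of these, Eef2k, the kinase of a translation elongation factor, measured 9.09, 9.25 and 9.19 in WT and 9.82, 9.78 and 9.55 in APP/PS1. Vps41, which helps late endosomes fuse with lysosomes, measured 10.08, 10.18 and 10.19 in WT and 10.91, 10.51 and 10.50 in APP/PS1. For both genes every APP/PS1 array was above every WT array, yet the differences of 0.54 ± 0.12 and 0.49 ± 0.14 (SE) were under the fold threshold, with adjusted p of 0.125 and 0.160. Eef2k passed without APP/PS1 array 3, at 0.63. Atp2c1, a calcium and manganese pump of the Golgi, had a difference of 0.40 ± 0.11 with an adjusted p of 0.141, and Slc25a46, of the mitochondrial outer membrane, one of 0.28.

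Below 0 the members next in size were Grk4, a kinase of G protein-coupled receptors, at -0.43 ± 0.20 (SE), and Rai14, an actin-associated ankyrin repeat protein, at -0.41 ± 0.16. Grk4 measured 8.13, 8.53 and 8.78 in WT and 7.91, 8.33 and 7.92 in APP/PS1, so that WT array 1 lay inside the range of the APP/PS1 arrays. Without WT array 1 the difference was -0.60 and passed both thresholds. Rai14 measured 11.19, 11.11 and 11.31 in WT and 10.95, 10.96 and 10.48 in APP/PS1, with no overlap, and passed in none of the alternatives. Il6ra, the receptor chain that binds interleukin-6, measured 8.40, 8.30 and 8.26 in WT and 8.15, 7.72 and 7.97 in APP/PS1, a difference of -0.38 ± 0.14 with an adjusted p of 0.221.

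In 19 members the genotypes did not overlap, against 25.1% of all probes and 26.2% of the others of the same length. APP/PS1 was higher in 5 of these 19, beside 12.3% of all probes and 13.5% of the others, and lower in 14, beside 12.8% and 12.7%. The 5 higher ones were Immt, Atp6v1h, Eef2k, Vps41 and Atp2c1. The 14 lower ones, of which those outside the naming rule were chosen after their values were seen, were Ablim1, Arid1b, Rai14, Il6ra, Cdkl3, Zfp236, Tcf4, Htra1, Sufu, Snx25, Abcc1, Chd1, Mdfic and Fam120c. APP/PS1 array 1 weighed on the count: without it 47 members did not overlap, 25 higher and 22 lower, while all probes reached 44.6%. Without WT array 1 there were 29, 9 higher and 20 lower, against 33.6% of all probes. With cyclic loess normalization 28 members did not overlap, 12 higher and 16 lower, against 26.1% of all probes. Lower members outnumbered higher ones in each of the 17 alternatives except the one without APP/PS1 array 1. The trended eBayes, the methods' own test and the replicate block use the main values, so their counts could not differ. Other filters and outlier spots kept also left 5 higher and 14 lower. As the WT values chose the members, the balance of directions is a description. The share of members lay above that of all probes in some alternatives and below it in others. Fewer arrays leave less room for overlap, so each count is read only beside its own background.

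Over the 6 arrays the members varied little. The SD of a member's log2 values had a median of 0.180, and the 10th and 90th percentiles were 0.0998 and 0.345. The median was 0.234 over the 695 others and 0.211 over all probes. As the rule took bright probes, this is a description beside dimmer ones and not a property tested in the members. Within the ranking the spread did not follow the order: in successive blocks of 25 members the median SD was 0.162, 0.190, 0.199 and 0.163. The error estimate that the scanner files give for each spot had a median of 10.0% of the signal over the members on each array. That estimate is made within an array and does not measure the spread between arrays.

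**Figure D3:**
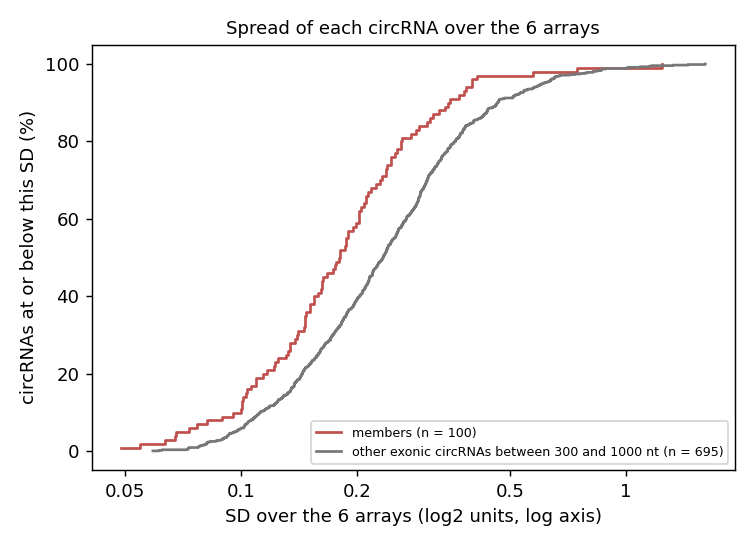
Percentage of circRNAs (y axis) with an SD over the 6 arrays at or below the value on the x axis, in log2 units on a log axis, for the 100 members in red and the 695 other exonic circRNAs between 300 and 1000 nt in grey. The member curve lies to the left, with medians of 0.180 and 0.234, and ends in a single step at 1.24, which is Mllt10.

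The plot of spread has several members at the steady end. Shb, an adaptor in receptor tyrosine kinase signalling, had the lowest SD at 0.0489, with 13.55, 13.42 and 13.42 in WT and 13.50, 13.49 and 13.46 in APP/PS1. Tiparp, an ADP-ribosyltransferase, had an SD of 0.0546, Gpr158, an orphan receptor of neurons, one of 0.0633, and Adgrv1, a large adhesion receptor, one of 0.0680. The genotype differences of these 4 lay between 0.02 and 0.07. Adgrv1 was less steady in the deposited table, with 8.26 in WT array 1 against 8.70 to 8.86 in the other arrays and a difference of 0.22.

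The other end was led by Mllt10, the partner of a histone methyltransferase, with an SD of 1.24. Its circRNA measured 7.52, 10.88 and 10.49 in WT and 10.27, 9.66 and 8.86 in APP/PS1. WT array 1 was the lowest by a wide margin while WT arrays 2 and 3 were the highest, and the APP/PS1 arrays spread between them. The scanner signal was 174 units in WT array 1 against 1629 and 1147 in the other WT arrays, and 1134, 1103 and 534 units in APP/PS1, beside local backgrounds of 14 to 20 units. The deposited table holds the same pattern, with 7.72, 11.01 and 10.60 in WT and 10.31, 9.70 and 8.97 in APP/PS1. The genotype difference was -0.03 ± 0.85 (SE), and without WT array 1 it was -1.08, past both thresholds. Without WT array 2 it was 0.59, of the other sign, and did not pass. The next members in spread were the called circRNAs of Immt at 0.747, Ccar1 at 0.573, Atp6v1h at 0.411 and Ablim1 at 0.399.

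Within the genotypes the WT arrays were the tighter group. The median SD of a member was 0.103 over the WT arrays and 0.177 over the APP/PS1 arrays, against 0.160 and 0.185 in the others and 0.144 and 0.178 over all probes. The APP/PS1 SD was the larger one in 68 members, beside 56.1% of the others and 58.4% of all probes. The WT columns had chosen the members by their mean, so the WT spread is not independent of the choice.

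APP/PS1 array 1 was the lowest of the 6 arrays in 46 members, against 22.9% of the others and 28.4% of all probes. WT array 1 was lowest in 16, APP/PS1 arrays 2 and 3 in 13 and 12, and WT arrays 2 and 3 in 6 and 7. The highest value of a member fell on WT array 1 in 32 cases and on APP/PS1 array 3 in another 32. The median deviation of the members from their own mean over the 6 arrays was -0.12 on APP/PS1 array 1, and between -0.01 and 0.06 on each of the others. Over all probes the median deviation of APP/PS1 array 1 was -0.04, and over the 695 others it was -0.01.

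**Figure D4:**
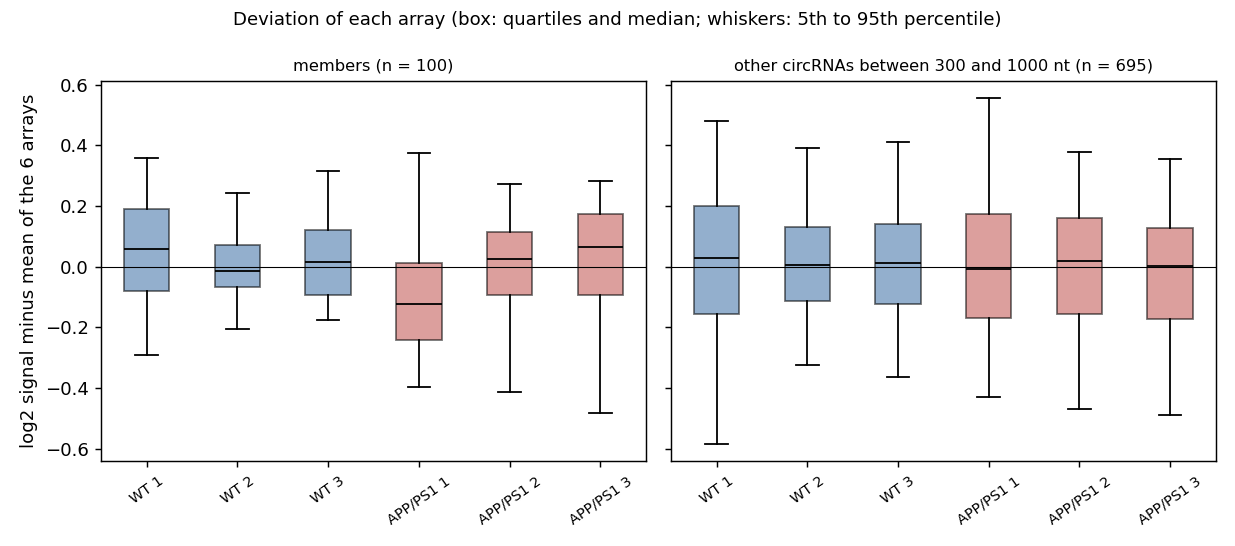
Deviation of each log2 value from the mean of its circRNA over the 6 arrays (y axis, log2 units) by array (x axis), for the 100 members on the left and the 695 other exonic circRNAs between 300 and 1000 nt on the right; boxes show quartiles and median, whiskers the 5th to 95th percentile. Among the members APP/PS1 array 1 has the lowest median, at -0.12.

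The plot of deviations shows most of the box of APP/PS1 array 1 below the line among the members and centred on it among the others. Taken in pairs, WT arrays 2 and 3 were closest, with a median absolute difference of 0.0835 between their member values and 0 members more than 1.5-fold apart. APP/PS1 arrays 2 and 3 followed at 0.104, with 7 members more than 1.5-fold apart. The widest pair was APP/PS1 arrays 1 and 3, at 0.297 with 15 members more than 1.5-fold apart, a wider gap than that between WT array 2 and APP/PS1 arrays 1, 2 and 3, where the medians were 0.168, 0.155 and 0.216. Without APP/PS1 array 1 the median genotype difference of the members was 0.02 in place of -0.04, and over all probes it was 0.01 in place of -0.01.

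In some named members this array stood apart. Cox18, which helps to insert a subunit of cytochrome c oxidase into the inner mitochondrial membrane, measured 12.13, 12.36 and 12.39 in WT and 12.54, 11.67 and 11.64 in APP/PS1. APP/PS1 array 1 was thus the highest of the 6 and the other APP/PS1 arrays the lowest. The difference was -0.34 ± 0.25 (SE), and without APP/PS1 array 1 it was -0.63 and passed both thresholds. Ctnna2, a neuronal alpha-catenin, had the opposite order, with 8.06, 7.89 and 8.09 in WT and 7.58, 8.35 and 8.50 in APP/PS1. Its difference was 0.13 ± 0.24, with 0.41 in the absence of APP/PS1 array 1 and -0.05 in the absence of array 3, and it passed under none of the alternatives.

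Most of the members at the top of the ranking by WT mean had log2 differences near 0. Mlip, which binds lamins, came first, with 13.31, 13.66 and 13.66 in WT and 13.72, 13.46 and 13.42 in APP/PS1. Its values interleaved, and its difference was -0.01 ± 0.15 (SE). Other members near the top were Shb, Fbxo34, the longer circRNA of Ctnnd2, Srsf11, the shorter circRNA of Ctnnd2, Aak1, Rnf130, Cox18, Kcnc1 and Wdr36. Cox18, given above, was the exception among those named here, and the differences of the others ran from -0.05 for Aak1 to 0.16 for Fbxo34, an F-box protein. No member of the first 25 passed both thresholds, and in the later blocks of 25 there were 2, 2 and 1, beside 5.41% of all probes; no trend along the ranking is read from counts this small.

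The limit of the ranking fell among closely spaced WT means of the deposited table. The last members inside were the circRNAs of Smarca4 at 8.13, C9 at 8.11 and Fam120c at 8.10, and the first outside were those of Stau2 at 8.07, Synj2bp at 8.05 and Unc80 at 8.05. Smarca4 encodes the ATPase of the BAF complex and C9 a terminal component of complement. The genotype differences of the 3 inside were 0.13, -0.23 and -0.34, and those of the 3 outside -0.10, -0.12 and -0.87. The last, of Unc80, passed both thresholds, so that a lower call lay just outside the limit. A ranking by the APP/PS1 columns of the deposited table would have kept 93 of the 100 members, one by all 6 columns 97, and one by the WT mean of the separately normalized scanner signal 95. Ranking by the APP/PS1 columns loses Ccar1, and ranking by these or by all 6 columns adds Astn1, which was higher by 0.72 and passed both thresholds.

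The host genes were sorted into lists by function, written from the host gene names of the sheet. At least 1 list held 49 of the members and 51 were in none. For scale, the members make up 12.6% of the 795 exonic circRNAs of the length range. No list was tested, and the lists are not complete: a gene of a named function can be in none.

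Genes of the ubiquitin and proteasome system formed the longest list among the members, with 13 of its 57 circRNAs in the length range. It held Fbxo34, Rnf130, Cdc27, Usp48, Ube2cbp, Ltn1, Rnf13, Ndfip1, Psmd8, Rnf138, Ubac2, Rnf145 and Usp13. In limma 0 of the 13 passed both thresholds and 0 had an unadjusted p under 0.05, beside 5.41% and 17.8% of all probes. In a list of this size such counts say little. Their differences ran from -0.21 to 0.20 with a median of 0.02, 7 above 0 and 6 below, beside a median of -0.04 over all members. Cdc27, a subunit of the anaphase-promoting complex, measured 11.79, 11.91 and 11.90 in WT and 12.25, 12.27 and 11.62 in APP/PS1. APP/PS1 arrays 1 and 2 lay above the WT arrays and array 3 below them, and the difference was 0.18 ± 0.19 (SE). Rnf130, a membrane-bound ligase, was steadier, with values from 12.45 to 12.69.

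Chromatin and transcription regulators hosted 8 members of the 49 circRNAs of their list. They were Supt20 of the SAGA coactivator, Mllt10, Arid1b, Sap130 and Sin3b of the Sin3 corepressor, Ezh2, the methyltransferase of Polycomb, the remodeller Chd1, and Smarca4. Arid1b fell, as given above, and the other 7 did not pass, beside 5.41% of all probes past both thresholds and 2.26% lower. The median difference of the 8 was -0.07. Arid1b and Smarca4 encode subunits of the same remodelling complex, and their circRNAs had differences of -0.62 and 0.13. Supt20 measured 9.56, 9.98 and 10.07 in WT and 10.14, 9.31 and 9.32 in APP/PS1, so that APP/PS1 array 1 was again apart from arrays 2 and 3, and its difference was -0.27 ± 0.25 (SE), and -0.55 without that array.

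Membrane trafficking also hosted 8 members, of 37 circRNAs of the list. Atp6v1h rose and the other 7 did not pass, and 2 of the 8, Atp6v1h and Vps41, had an unadjusted p under 0.05. Among all probes 5.41% passed both thresholds, 3.15% higher, and 17.8% had such a p. The median difference of the 8 was 0.06. Vps41 has been described, and Aak1, the kinase of the clathrin adaptor, Gopc, a scaffold of the Golgi, Arfip1, Pik3c2a, Vps13c and Snx25 lay between -0.24 and 0.16. APP/PS1 array 1 was the lowest of the 6 arrays in 6 of the 8.

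RNA processing hosted 5 members of 59 circRNAs, a list that also held Ccar1, whose better known roles were given above. Ccar1 fell and the other 4 did not pass, beside 5.41% of all probes past both thresholds and 2.26% lower. The median difference was -0.10, and the median SD over the 6 arrays of 0.304 was above the 0.180 of all members. Srsf11, a splicing factor, varied little, with values between 12.47 and 12.71 and a difference of -0.05. Snrnp48, of the minor spliceosome, measured 10.74, 10.62 and 10.80 in WT and 10.66, 10.58 and 9.96 in APP/PS1. The low APP/PS1 array 3 carried its difference of -0.32 ± 0.19 (SE), which was -0.11 without that array. Rbm39, a splicing coactivator, had 10.35 in WT array 1 against 9.40 to 9.99 in the other arrays, and a difference of -0.10. With an array left out the difference of Rbm39 ran from -0.26 to 0.14. Exosc9 was the 1 member of the list above 0, with a difference of 0.25 ± 0.13 (SE).

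The list of kinases and phosphatases held 6 members of 65 circRNAs, 0 of which passed both thresholds in limma while 1, Eef2k, had an unadjusted p under 0.05, beside 5.41% and 17.8% of all probes. The median difference was -0.03. The list lacks Cdkl3, a kinase whose circRNA had a difference of -0.38 with an unadjusted p under 0.05, and Myo3b, a myosin with a kinase domain, at 0.09. Ptpn4 and Ptprt encode tyrosine phosphatases, and their circRNAs had differences of 0.07 ± 0.17 and -0.36 ± 0.21 (SE). Centrosome, cilium and spindle genes hosted 2 members of 31 circRNAs, Haus6 of the augmin complex at 0.05 and Clasp2, which binds growing microtubule ends, also at 0.05. DNA repair and replication genes hosted 0 members of 18.

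**Figure D5:**
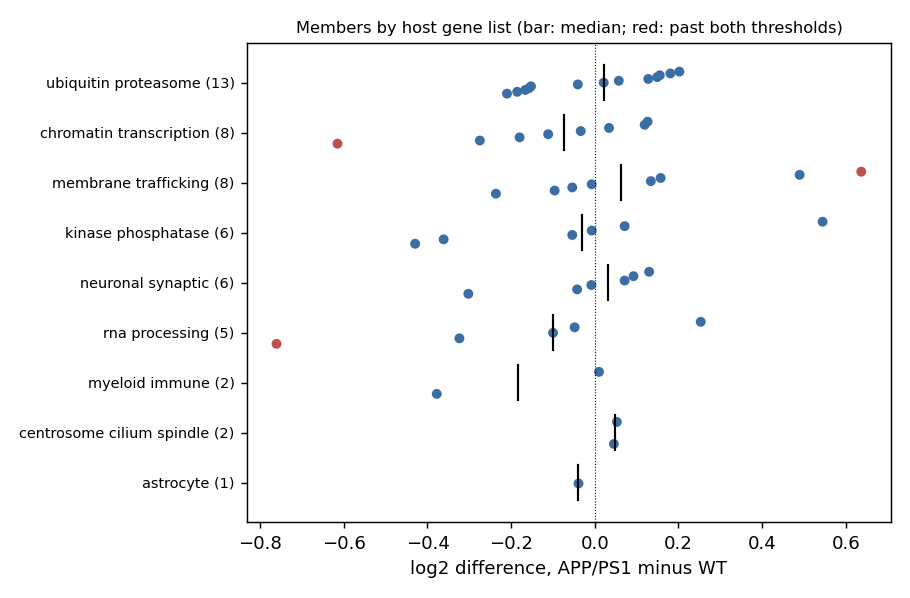
Log2 difference of APP/PS1 minus WT (x axis) for each member, by host gene list (y axis, with the number of members), with a bar at the median of each list; a circRNA in 2 lists is drawn in both. The 13 circRNAs of ubiquitin and proteasome genes lie between -0.21 and 0.20, and the called circRNAs of Arid1b, Atp6v1h and Ccar1 are red.

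The plot of lists also shows the genes known from particular cell types. Neuronal and synaptic genes hosted 6 members of 57 circRNAs, and limma called 0 of the 6, with 0 under an unadjusted p of 0.05, beside 5.41% and 17.8% of all probes. Their differences ran from -0.30 to 0.13, with a median of 0.03. They were the 2 circRNAs of Ctnnd2, a delta-catenin of neuronal junctions, with Kcnc1, a voltage-gated potassium channel, Gpr158, Dpp10, an accessory subunit of potassium channels, and Ctnna2. Kcnc1 measured 12.31, 12.24 and 12.33 in WT and 12.07, 12.26 and 12.52 in APP/PS1, on both sides of the WT range. Dpp10 had the lowest difference, -0.30 ± 0.15 (SE). APP/PS1 array 1 was the lowest array in 4 of these 6 and the highest in 0.

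The list of myeloid and immune genes held 2 members of 18 circRNAs, Cxcl16 and Il6ra, and lacks C9. Cxcl16, a chemokine made as a membrane protein, measured 9.64, 9.54 and 9.54 in WT and 9.42, 9.61 and 9.72 in APP/PS1. Its APP/PS1 arrays lay on both sides of the WT arrays, and its difference was 0.01 ± 0.12 (SE). Slc1a2, the glutamate transporter of astrocytes, measured 9.19, 9.02 and 8.85 in WT and 8.85, 8.97 and 9.12 in APP/PS1, with a difference of -0.04 ± 0.13. The part of other cell types in these signals was not tested.

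The 100 members came from 99 host genes, since Ctnnd2 hosted 2. The ring of 924 nt lay between positions 30634644 and 30669606 of chromosome 15 and the ring of 389 nt between 30683215 and 30775231, so they share no exon. The longer measured 12.73, 12.67 and 12.63 in WT and 12.52, 12.83 and 12.95 in APP/PS1, and the shorter 12.70, 12.61 and 12.61 in WT and 12.44, 12.62 and 12.74 in APP/PS1. Both were lowest on APP/PS1 array 1 and highest on APP/PS1 array 3, and their differences were 0.09 ± 0.14 and -0.04 ± 0.12 (SE).

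A host gene can give several rings, and 23 host genes of members had more than 1 circRNA among the entries held. The 30 further circRNAs of these genes, of any type or length, had a median difference of -0.07; limma called 0 of them, and 3 had an unadjusted p under 0.05, beside 5.41% and 17.8% of all probes. The pair from Atp6v1h differed in size, with 0.64 ± 0.18 for the member and 0.16 ± 0.14 (SE) for the other ring, of 869 nt. The further ring measured 4.77, 4.43 and 4.81 in WT and 4.92, 4.88 and 4.67 in APP/PS1, with overlap, and whether the pair differs was not tested. The further ring of Shb, of 292 nt, shares 1 end of its junction with the member and had a difference of 0.02, as did the member. Tasp1, a protease that cleaves nuclear factors, had 4 further rings with differences from -0.25 to 0.21 beside 0.16 for the member. For Ptpn4 the 3 further rings ran from -0.10 to 0.53.

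Tcf4, a transcription factor of the basic helix-loop-helix family, was singled out after its values were seen. Its member of 373 nt measured 8.43, 8.36 and 8.38 in WT and 8.06, 8.08 and 8.09 in APP/PS1. Its further ring of 159 nt, from another stretch of the gene, measured 5.94, 5.52 and 5.85 in WT and 5.19, 5.22 and 5.16 in APP/PS1. In both rings all APP/PS1 arrays were below all WT arrays. The differences were -0.31 ± 0.10 and -0.58 ± 0.14 (SE), with adjusted p of 0.181 and 0.126, and neither passed the fold threshold. The other 2 further rings with an unadjusted p under 0.05 came from Lrig2, at -0.48, and Rnf138, at -0.38, where the members had -0.21 and -0.17.

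Within the length range that the rule fixed for both, the median length was 550 nt in members and 535 in the others. In features that the rule did not use, the median span of members on the genome was 12010 bases, from 391 for Depdc7 to 330752 for Npas3, and that of the others 10382. A single exon block made up 3 members and 3.02% of the others. circBase was the source of 11 members and of 13.8% of the others. The plus strand carried 59 members and 53.8% of the others. Members lay on 20 chromosomes, most on chromosome 3 with 10 of them, where 5.61% of the others lay, and next on chromosomes 2, 9 and 18 with 8 each.

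The sheet names no genome build for its positions. Of the members, 94 had a host transcript found in the RefSeq annotation of the mouse assembly GRCm38.p6, and all 94 lay inside that gene; of the others 667 did, and all 667 lay inside. Positions are given on that ground. Neither the sequences of the rings nor those of the probes were at hand, so none are shown.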

How the data were processed

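Each sample was measured on 1 Arraystar mouse circRNA array. Per the file headers, the scanner files hold the fluorescence intensity of each spot before and after background subtraction, and quality marks of 0 or 1 (other) for each spot; the submitters' processing notes name Agilent Feature Extraction 11.0.1.1 and limma. The authors deposited a table of log2 values, quantile normalized, whose medians by array are 6.20, 6.19, 6.20, 6.19, 6.19 and 6.19; its background correction is not stated. That table served only to choose the members and as an alternative. All differences came from the background-subtracted intensity: spots marked as outliers were left out, circRNA probes had to be marked well above background on 3 or more of the 6 arrays, values were log2 transformed and quantile normalized, and genotypes were compared over 3 against 3 arrays with lmFit and eBayes of limma 3.58.1 in R 4.3.3, with Benjamini-Hochberg adjustment over all 13420 probes. Calls took the thresholds of the study, 1.5 for the fold and 0.05 for the unadjusted p. The fit was tested on simulated data. The number of arrays limits the precision.

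Named members were the 12 with the highest WT mean, the 6 largest differences each way, the 5 lowest and 5 highest SDs, the 3 on either side of the limit, members sharing a host gene, all members in the myeloid, neuronal, astrocyte and oligodendrocyte lists, and up to 3 with the highest WT mean in each other list; not every one is described. Members and lists were chosen with earlier results of these data known, and the function lists were drawn from the host gene names in the sheet, which was held in part. Alternatives were 75th percentile scaling, cyclic loess, the deposited table, median spot signal, normexp with an offset of 50, other filters, outlier spots kept, a trended robust eBayes, the methods' own test, a replicate block, each array left out, and 5 other choices of members.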

Additional observations from a re-analysis of the deposited data

How the results depend on the processing

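Of 765 values for 45 named circRNAs under 17 alternatives, 737 counted as the same. A called circRNA had to stay called for this. One not called had to stay so and move by less than its SD between replicates. Of the rest, 16 no longer passed and 4 passed newly (Cox18, Mllt10, Eef2k and Grk4, each without 1 array). Another 8 stayed uncalled but moved beyond that SD. These came from 3 steady circRNAs, Adgrv1 and Tiparp among them. No called value changed sign. No member with a difference of 0.2 or more in size, 32 in all, changed sign under any of the 17; of all members at most 20 did, without APP/PS1 array 1.

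The count of higher members, 2, was 1 with the deposited table, with median spot signal, with normexp and with members chosen by the normalized scanner signal, and 0 among the 50 brightest. It was 3 among the 200 brightest and with members chosen by the APP/PS1 columns or all 6 columns. With an array left out it ran from 1 to 3. Of all 13420 probes 3.15% were called higher in the main fit, and 355 to 540 probes with an array left out. The count of lower members, 3, was 2 with 75th percentile scaling, the deposited table, median signal and normexp, where Arid1b was lost, and with the methods' own test or members chosen by the APP/PS1 columns, where Ccar1 was lost. Among the 50 brightest it was also 2. It was 8 among the 200 brightest and ran from 1 to 5 with an array left out. Of all probes 2.26%, or 303, were called lower in the main fit. With 75th percentile scaling 422 were, and with an array left out 234 to 508. Members whose genotypes did not overlap, 19, were 4 among the 50 and 55 among the 200 brightest, lists of other length, beside 25.1% of all probes, and 24 to 47 with an array left out, beside 30.8% to 44.6%. Otherwise the cause was not tested. Deposited values, median signal and normexp also called fewer of all probes, 2.37%, 2.14% and 1.44%. The methods' own test called 3.61% of them, against 5.41% in the main fit.

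With the replicate number as a block, 2 members were higher and 2 lower, Ccar1 no longer passing, beside 5.58% of all probes called. Members with an unadjusted p under 0.05 went from 15 to 8, and all probes from 2384 to 1923. Without a block, that count of members was 25 without APP/PS1 array 1, beside 3075 probes, and 10 without WT array 3, beside 1752. It was 22 with the deposited table, 23 with median spot signal and 20 with normexp, beside 2182, 2213 and 2209 probes. Deviations of WT and APP/PS1 arrays of equal number correlated across probes at -0.25, -0.08 and -0.22, and the numbering gives no pairing of samples. The median difference of the members ran from -0.08 to 0.02 and their median SD from 0.162 to 0.194 with an array left out; 75th percentile scaling gave a median difference of 0.00. No scaling moved the median of all probes by over 0.1. The lowest adjusted p of a member ran from 0.0597 to 0.350 over the 17, and 0 members reached 0.05 after adjustment. Of all probes 4 did with the methods' own test, 2 with normexp and 0 in the other alternatives.

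All members were well above background on all 6 arrays, with 0 spots marked as outliers or saturated and a lowest signal of 155 units over local backgrounds with medians of 14 to 20. Atp6v1h and Arid1b did not pass with median spot signal, normexp or the deposited table, and Arid1b did not pass with 75th percentile scaling. Which step of these settings lost the calls was not tested. With 3 samples per genotype, 1 array decided several calls. Genotype is confounded with slide row. Only part of the sheet was held, so exonic circRNAs outside it with high WT signal are missing from the ranking. Bright probes are not abundant circRNAs by that alone, linear RNA left after RNase R was not measured, and host genes say nothing of what a ring does.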
